A study of Mus musculus with 9 samples.

Results

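The 36 genes described here encode chaperones, folding enzymes, stress sensors, degradation factors and import proteins of the endoplasmic reticulum (ER). They were taken as a named list, by gene symbol, from the deposited table of values, and all 36 were among its 12339 genes. RNA had been sequenced from KP-GFP cells, mouse tumour cells of C57BL/6 strain that carry green fluorescent protein (GFP), in 9 libraries. The 3 groups of 3 libraries were tumour cells grown as spheroids alone, with lung TRMs (tissue-resident alveolar macrophages), or with bone-marrow monocytes, and the question was how each added cell population bears on the tumour cells. Every spheroid started from 2500 tumour cells, to which 5000 TRMs or 5000 monocytes were added in the co-cultures, and grew for 7 days in medium with serum. All groups then shared the same handling: 32 spheroids per condition were pooled, dissociated for 20 min at 37 °C, and sorted for GFP. The labels do not spell out the genotype behind the name KP, and do not say whether the cells are 1 clone. They also do not say whether the replicates are separate cultures. The p-values weigh differences between groups against the spread among these libraries, and that spread may therefore be technical.

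The ER is where secreted and membrane proteins enter the secretory route. They pass through the Sec61 channel, fold with the help of the HSP70-type chaperone BiP (encoded by Hspa5), of lectin chaperones that hold sugar-bearing proteins, and of disulfide isomerases, and are drawn back into the cytosol for degradation when folding fails. When unfolded protein builds up, the sensors IRE1 (Ern1), ATF6 and PERK (Eif2ak3) start the unfolded protein response, which lowers protein synthesis and raises chaperone and degradation genes. IRE1 does so by splicing the messenger RNA of Xbp1, and the value of a whole gene does not tell spliced from unspliced Xbp1. ATF6 and XBP1 act through short promoter sequences, the ER stress elements, that were first defined in the promoters of chaperone genes such as Hspa5, Hsp90b1 and Calr.

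The promoter sequence was looked at first, because a short element is shared by many of the 36 genes. They were listed by name and not by promoter sequence. The element was, however, first defined in members such as Hspa5, Hsp90b1 and Calr. Its frequency among the 36 genes is therefore not independent of how the list was made. RefSeq (GRCm38.p6) gave a window of 300 bases, from 250 before to 50 after the transcription start, for 30 of the 36 genes. Hyou1, Manf, Atf6, Derl1, Sec61a1 and Ssr2 had no entry. The ER stress element (ERSE) was searched on both strands as CCAAT, any 9 bases, then CCACG, and its second form (ERSE-II) as ATTGG, any 1 base, then CCACG. The second pattern holds the first block on its opposite strand, as ATTGG, so that matches of the 2 patterns may share letters; in these genes none did. A gene with several windows was counted once. The first was found in 10 of the 30 genes (33.3%), and in 37 of all 27025 genes with a window (0.137%). The second was found in 2 of the 30 (6.67%), Herpud1 and Dnajb11, and in 12 of the 27025 (0.0444%). The core of the unfolded protein response element, TGACGTGG, which shares CGTGG with the opposite strand of the first pattern, was in none of the 30 windows and in 0.714% of all genes. The stretches of Hspa5, Hsp90b1 and Herpud1 are shown because these 3 genes were called in at least 1 comparison and not all in 1 direction, and those of Canx and Pdia6 because their RNA did not pass the test. They read 5′ to 3′ on the strand of the gene, and capitals mark the fixed letters of the pattern.
Hspa5, chr2:34772020-34772048, plus strand: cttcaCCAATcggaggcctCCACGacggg
Hsp90b1, chr10:86705513-86705676, minus strand: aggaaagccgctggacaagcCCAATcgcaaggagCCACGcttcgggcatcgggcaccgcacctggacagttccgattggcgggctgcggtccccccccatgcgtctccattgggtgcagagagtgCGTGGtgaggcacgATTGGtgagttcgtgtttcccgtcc
Canx, chr11:50325780-50325838, minus strand: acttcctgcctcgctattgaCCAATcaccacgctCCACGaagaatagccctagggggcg
Pdia6, chr12:17266471-17266529, plus strand: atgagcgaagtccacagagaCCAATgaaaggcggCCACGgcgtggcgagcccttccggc
Herpud1, chr8:94386357-94386407, plus strand: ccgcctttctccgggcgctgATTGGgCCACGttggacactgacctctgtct
The match in Hspa5 began 65 bases before the start site, and that in Herpud1 began 52 bases before it. Distances are from the RefSeq start. The GENCODE model of Hspa5 begins further upstream, and by that model the stretch shown for Hspa5 lies within the gene. The GENCODE models of Hsp90b1 and Pdia6 also begin upstream of the RefSeq start, but the stretches shown still lie before them. That of Herpud1 begins downstream of its RefSeq start. Hsp90b1 held 2 matches, beginning 212 and 107 bases before the start, the second of them on the opposite strand. The other matches to the first pattern lay before the start sites of Dnajc3, Creld2, Calr, Ero1lb, Syvn1 and Derl3, and the match in Dnajb11 lay 8 to 18 bases into the transcript. A match is a string of letters, and no factor's binding was measured here.

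**Figure D1:**
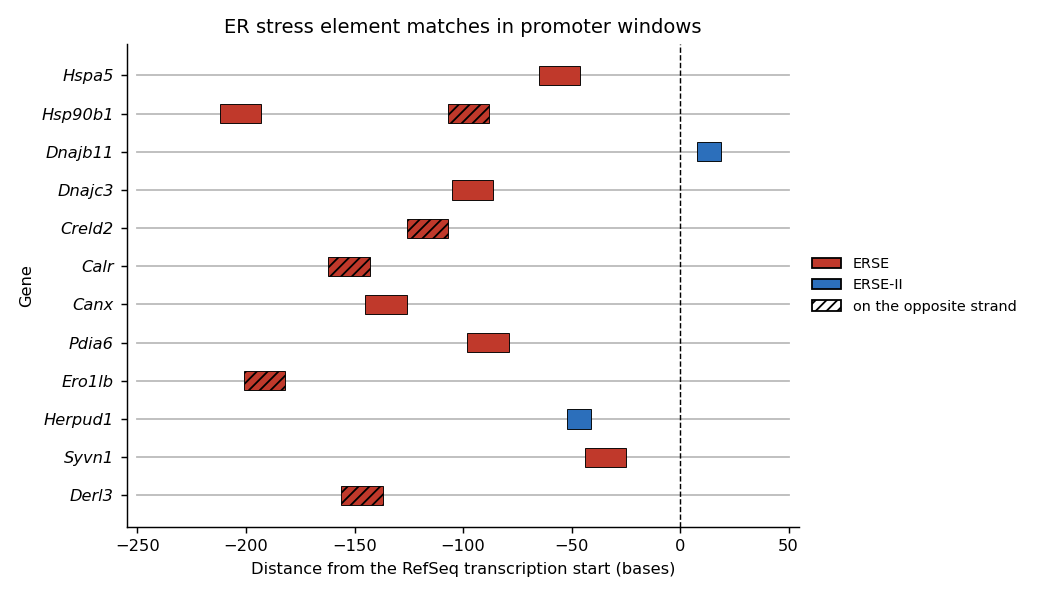
Positions of the ER stress element (ERSE, red) and its second form (ERSE-II, blue) in the promoter windows of the 12 genes with a match, as distance in bases from the RefSeq transcription start on the x axis, 1 gene a row; hatching marks a match on the opposite strand. The matches lie before the start in every gene shown except Dnajb11, and Hsp90b1 has 2.

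Each library held 16001895 to 32771448 reads, and libraries are named here by group and replicate number, such as alone 2. Markers of macrophages and monocytes were at low levels in every group: 17 of 30 were in the table, with summed values of 206 to 297 CPM alone, 206 to 363 with TRMs and 204 to 294 with monocytes (CPM, reads scaled to a common library size). The defining genes Adgre1, C1qa, C1qb, C1qc, Tyrobp, Fcer1g, Ly6c2 and Marco were not among the 12339, and Ptprc lay between 0.021 and 4.47 CPM. Of the 17, 2 rose and none fell with TRMs, and 2 rose and 4 fell with monocytes (Chil3, Plac8, Ptprc and Siglecf), against 10.2% higher and 8.15% lower, and 14.7% and 12.7%, of all 12326 genes tested. Those that rose were Mrc1 and F13a1 in both comparisons. Mrc1 (5.12 ± 0.211 CPM alone) rose to 32.9 ± 9.27 with TRMs and 39.2 ± 7.49 with monocytes (SD, n = 3; limma adjusted p = 1.46e-05 and 8.28e-06), and F13a1 (0.96 ± 0.303 CPM alone) rose to 13.4 ± 3.82 and 13.4 ± 5.38 (limma adjusted p = 4.14e-05 and 3.61e-05). Of 11 epithelial markers 9 were in the table, without Nkx2-1 and Sftpc. Their sums were 15359 to 17273 CPM alone, 15356 to 19252 with TRMs and 10542 to 16617 with monocytes. Of the 9, Hnf4a and Cldn4 fell with TRMs (22.2%), and Cdh1, Cldn7, Cldn4 and Hnf4a fell with monocytes (44.4%), where all 9 had a log2 difference below 0. In the list of 14 early stress genes that dissociation can raise, 1 rose and 4 fell with TRMs, and 1 rose and 8 fell with monocytes (28.6% and 57.1% lower); the sums were 27233 to 37619, 25984 to 27345 and 19475 to 22887 CPM in the same order. The part of these markers and of early stress genes in the results below was not tested. In bulk RNA, fewer cells of a kind and less RNA per cell cannot be told apart.

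In tumour cells alone, the 36 genes covered nearly the whole range of the table. Per kilobase of transcript, the level of Hspa5 was 601 CPM, rank 50 of 12255 genes with a transcript length. Next came Calr (307 CPM per kilobase), the disulfide isomerases P4hb (273), Pdia3 (272) and Pdia6 (214), and Herpud1 (148). The transcription factor gene Xbp1 stood at 115 CPM per kilobase, the sensor genes Atf6 at 16.4 and Ern1 at 9.92. Lowest were Ero1lb at 1.95 and Derl3 at 0.793 CPM per kilobase. Derl3, a derlin of secretory tissues, had 9 to 41 reads per library, so its differences have wide intervals. Every one of the 36 passed the filter on low reads and entered the tests.

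The 3 alone libraries were not alike in these genes. Library alone 2 was the highest of its group in 26 of the 36 genes (72.2%, against 38.6% of all genes tested), and alone 1 was the lowest in 25 (69.4%, against 35.3%). The SD of log2 values among the alone libraries ran from 0.019 for P4hb, lower than in all but 0.633% of genes, to 0.51 for Ern1 and 1.06 for Derl3. It was 0.36 for Hspa5 and 0.46 for Hyou1. The median over the 36 was 0.19, against 0.21 over all genes. The plot of values by library shows this as a red column for alone 2 beside a blue one for alone 1.

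**Figure D2:**
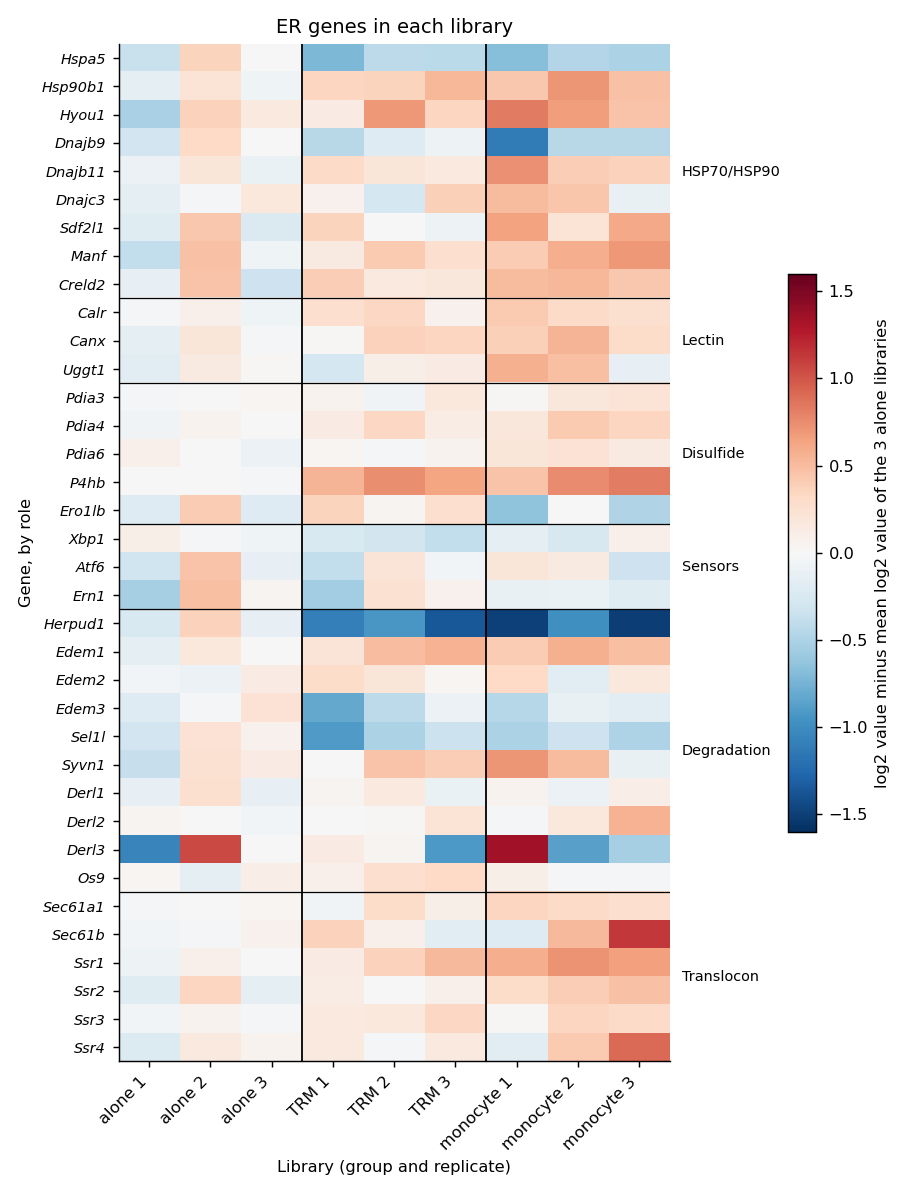
Level of each of the 36 genes (rows, by role) in each of the 9 libraries (columns), as the log2 value minus the mean log2 value of the 3 alone libraries; red is higher and blue is lower. Herpud1 is blue in all 6 co-culture libraries, P4hb is red in all 6, and alone 2 is red for most genes.

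With TRMs, 1 gene rose (P4hb) and 2 fell (Herpud1 and Sel1l), and 33 of the 36 did not pass. That is 8.33% of the list, against 18.4% of the 12326 genes tested. With monocytes, 7 rose (Ssr1, P4hb, Hsp90b1, Edem1, Dnajb11, Hyou1 and Manf), 3 fell (Herpud1, Dnajb9 and Hspa5) and 26 did not pass: 27.8% of the list, against 27.3% of all genes. The share called was thus below the background in the first comparison and near it in the second. The median log2 difference over the 36 was 0.09 with TRMs and 0.29 with monocytes, against -0.0019 and -0.016 over all genes. It lay above 0 in 26 and 27 of the 36, against 49.9% and 48.9% of all genes. With library totals in place of the authors' scaling, the median was 0.0059 with TRMs and 0.24 with monocytes. The genes above 0 were then 20 and 24 of the 36. That scaling moved all genes too, to medians of -0.087 and -0.066, with 5296 and 5601 of 12326 genes above 0. Under the authors' scaling, the median with TRMs was 0.17 without alone 2, 0.14 without TRM 3 and 0.075 without alone 1. The genes above 0 with TRMs were 30 of the 36 without alone 2, 22 without alone 3 and 21 without alone 1. Groups that do not overlap were counted too: with TRMs 6 of the 36 lay wholly above and 4 wholly below the alone libraries (20.8% and 18.5% of all genes), and with monocytes 11 and 4 did so (21.3% and 19.2%). Both comparisons use the same 3 alone libraries, so their values stand side by side and are not independent.

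The counts of called genes rest in part on single libraries. In the comparison with TRMs the count that rose was 3 without alone 2, TRM 1 or monocyte 1, and the count that fell was 1 without alone 2 or 3 or TRM 1 or 2. Library totals gave 1 and 4, and DESeq2 gave 3 and 3. In the comparison with monocytes the count that rose was 2 without alone 1, 2 without alone 3, 3 without monocyte 2 and 11 without alone 2. The count that fell was 1 without alone 2 or 3 or monocyte 1. P4hb and Herpud1 were called in both comparisons, and Ssr1 in that with monocytes, under all 17 other settings that were run. Over all genes, 1257 rose and 1005 fell with TRMs, and 1003 and 1302 did so with library totals.

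**Figure D3:**
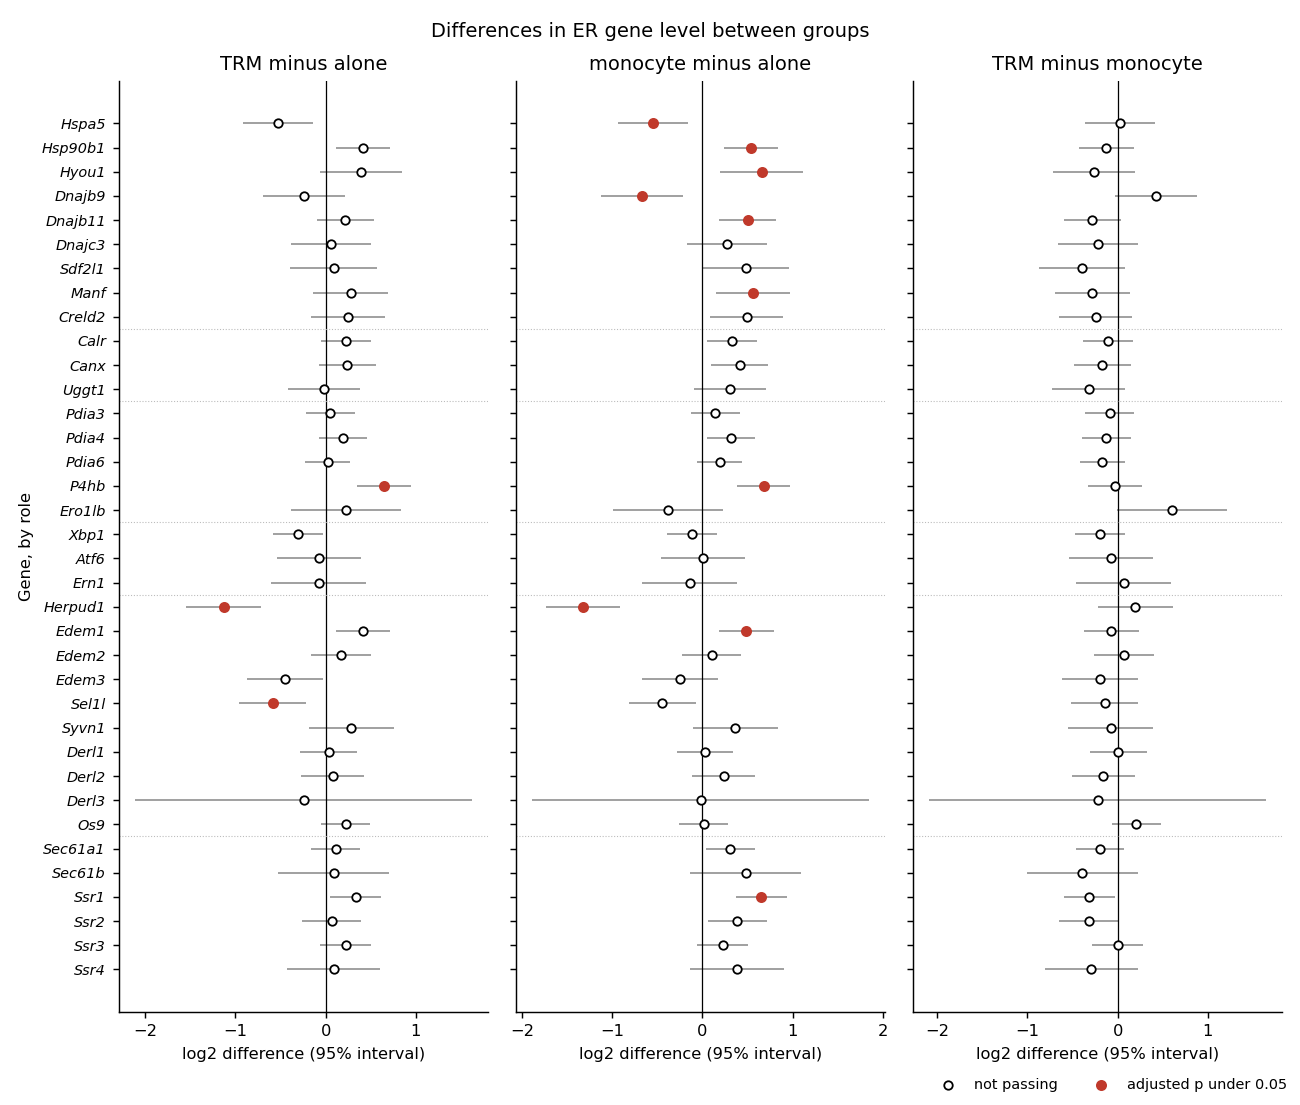
Log2 difference (x axis) of each of the 36 genes (rows, by role) between TRM co-culture and alone, monocyte co-culture and alone, and TRM and monocyte co-culture, with 95% intervals from limma; red points have an adjusted p under 0.05. Herpud1 lies furthest to the left in the first and second panels, and no point is red in the third.

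The chaperones of the HSP70 and HSP90 kind and their partners split in direction. With monocytes 4 of the 9 rose (Hsp90b1, Hyou1, Dnajb11 and Manf), 2 fell (Hspa5 and Dnajb9) and 3 did not pass (44.4% higher and 22.2% lower, against 14.7% and 12.7% of all genes). With TRMs none of the 9 passed in limma, against 18.4% of all genes. Of the 9, 2 had an unadjusted p under 0.05, and edgeR and DESeq2 called 1 and 2. Hspa5, for BiP itself, lies on chromosome 2 (34771970 to 34777547, GRCm38, plus strand). Its values were 1438, 2370.1 and 1853 CPM in the alone libraries, 1120.4, 1379 and 1368 with TRMs and 1152, 1338 and 1299.8 with monocytes. All 6 co-culture libraries lay below all 3 alone libraries, whose own range was wide. The mean was 1887 ± 467 (SD, n = 3) alone and 1263 ± 98 with monocytes, 1.47-fold lower (log2 -0.55, SE 0.18, limma adjusted p = 0.0356). Leaving out alone 2, where Hspa5 was highest, gave an adjusted p of 0.129, and the call was lost in 7 of 17 settings. With TRMs the mean was 1289 ± 146 (SD, n = 3) and the log2 difference -0.53 (limma adjusted p = 0.0584), which edgeR (0.0457), DESeq2 (0.00855) and library totals (0.024) put under 0.05.

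Hsp90b1 encodes GRP94, the HSP90 of the ER (chromosome 10, 86690209 to 86705509, minus strand). It is overlapped on the plus strand by 1810014B01Rik, whose reads cannot be told apart by a kit not stated to mark strand. Gm15344 and Gm25745 overlap it on its own minus strand. Hsp90b1 stood at 293, 382 and 313 CPM alone, against 415, 418 and 473 with TRMs and 443, 534 and 451 with monocytes. The co-culture libraries were above every alone library, the opposite of Hspa5. Hsp90b1 was 1.45-fold higher with monocytes (log2 0.54, SE 0.14, limma adjusted p = 0.0121), and 1.33-fold higher with TRMs without passing (limma adjusted p = 0.0577). The rise with monocytes was lost without alone 1 (0.0664) or 3 (0.054) or monocyte 2 (0.0556).

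Dnajb9 encodes ERdj4, a BiP partner known as a target of the IRE1 and XBP1 branch. Its values were 58.8, 91.1 and 72.3 CPM alone, against 53.4, 63.2 and 69.1 with TRMs and 33.5, 53.4 and 53.4 with monocytes. The monocyte libraries lay below the alone libraries, while those with TRMs overlapped them. The fall with monocytes was 1.59-fold (log2 -0.67, limma adjusted p = 0.0302), and the call was lost without alone 2 (0.113), alone 3 (0.078) or monocyte 1 (0.113). With TRMs the log2 difference was -0.24 (limma adjusted p = 0.473).

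The 3 other called members of this group rose with monocytes. Hyou1, a large HSP70-like exchange factor of BiP, was at 80.2, 147 and 127 CPM alone, against 126, 185 and 145 with TRMs and 204, 183 and 158 with monocytes (log2 0.65, limma adjusted p = 0.0347 with monocytes). Its monocyte libraries lay above the alone libraries and overlapped those with TRMs. Dnajb11, which encodes the co-chaperone ERdj3, was at 69.4, 84.1 and 68.7, 91, 84.6 and 82.1 and 122, 97 and 95.6 CPM in the same order (log2 0.50, limma adjusted p = 0.0216). Its monocyte libraries lay above those of both other groups. Manf, a BiP-binding protein that cells can also secrete, was at 55.8, 102 and 69.7, 81.4, 98.3 and 88.2 and 97, 109.7 and 119 CPM (log2 0.56, limma adjusted p = 0.0451). Its groups overlapped, with alone 2 above monocyte 1 and below the other monocyte libraries. The gene model of Manf is overlapped by Dcaf1, 4930524O07Rik and Gm37612 on the plus strand, and by Rbm15b on its own minus strand. That of Dnajb11 is overlapped by Gm30505 on the minus strand, and that of Dnajb9 by Mir5627 on the plus strand. Whether reads were shared with these genes was not tested. Manf lost its call in 10 of 17 settings, edgeR among them (0.066). Hyou1 lost it without alone 1 (0.163) or 3 (0.0551) or monocyte 1 (0.107) or 2 (0.0825), and Dnajb11 without alone 1 (0.0835) or 3 (0.0916) or monocyte 1 (0.073). With TRMs their log2 differences were 0.39, 0.22 and 0.28, none past the test. Dnajc3, the co-chaperone that can restrain PERK, Sdf2l1, a partner of ERdj3, and Creld2 did not pass in either comparison, with log2 differences of 0.28, 0.48 and 0.49 with monocytes.

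**Figure D4:**
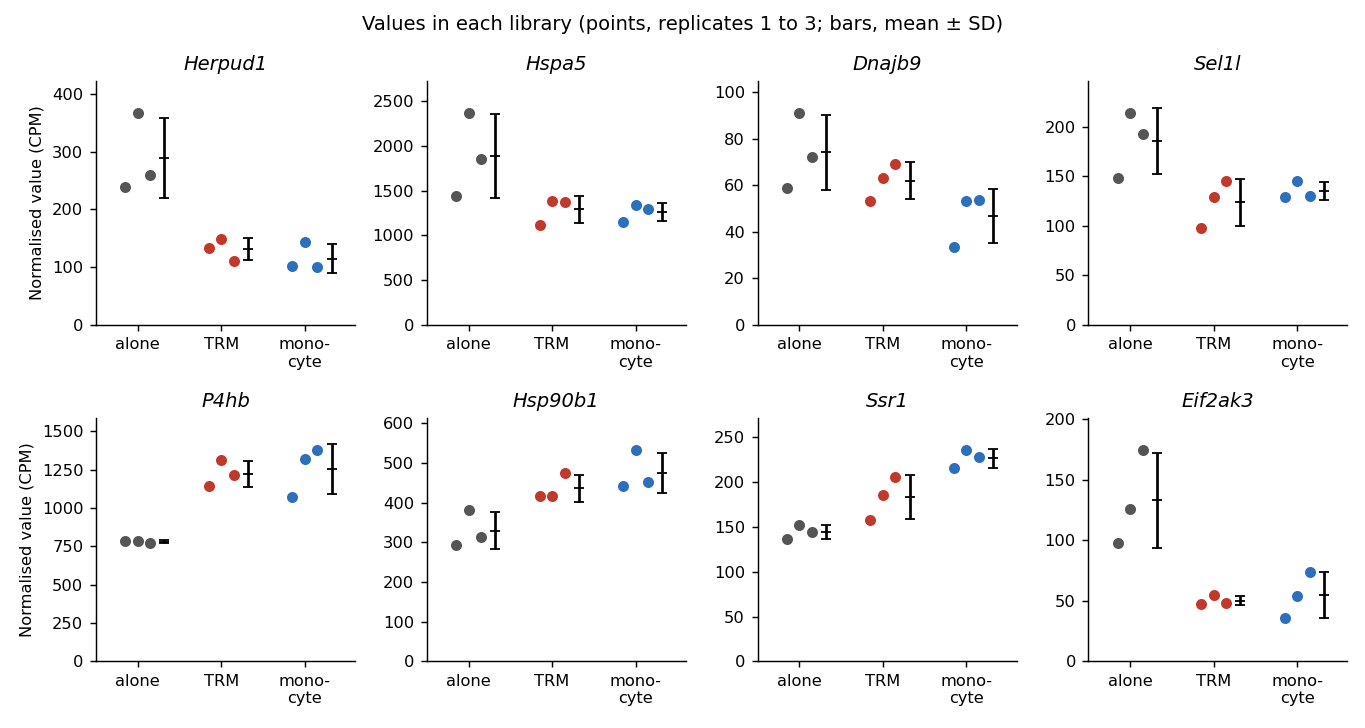
Values in CPM (y axis, from 0) of 8 genes in each library (points), with the group mean and SD, for tumour cells alone, with TRMs and with monocytes. The co-culture libraries of Herpud1, Hspa5, Sel1l and Eif2ak3 lie below the alone libraries, and those of P4hb, Hsp90b1 and Ssr1 above them.

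Among the lectin chaperones, calreticulin (Calr) and calnexin (Canx) hold sugar-bearing proteins, and Uggt1 marks those not yet folded for another round. None of the 3 passed the test in limma in either comparison, against 18.4% of all genes with TRMs and 27.3% with monocytes. Of the 3, 0 had an unadjusted p under 0.05 with TRMs and 2 with monocytes. With TRMs edgeR and DESeq2 called 0. With monocytes, Canx went from 434 ± 55.4 to 576 ± 50.2 CPM (SD, n = 3; log2 0.41, limma adjusted p = 0.051) and Calr from 669.8 ± 36.5 to 840.5 ± 48.2 (log2 0.33, limma adjusted p = 0.0747). In both genes every monocyte library lay above every alone library. DESeq2 called both (0.0327 and 0.0447), and edgeR called 0 of the 3 with monocytes. Uggt1 had log2 differences of -0.017 with TRMs and 0.31 with monocytes.

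The disulfide enzymes form and shuffle the bonds between cysteines. P4hb, protein disulfide isomerase, which is also a subunit of the collagen prolyl 4-hydroxylase, lies on chromosome 11 (120560298 to 120573253, minus strand). Its values were 787, 788 and 769.8 CPM alone, against 1142, 1314 and 1213 with TRMs and 1070.3, 1317 and 1381 with monocytes. The alone libraries were almost equal and lay far below all 6 others. P4hb was 1.56-fold higher with TRMs (log2 0.64, SE 0.14, limma adjusted p = 0.00576) and 1.6-fold higher with monocytes (log2 0.68, SE 0.14, limma adjusted p = 0.00291). The other isomerases did not pass: the log2 differences of Pdia3, Pdia4 and Pdia6 lay between 0.021 and 0.31 over both comparisons. Their 95% intervals reached no further than 0.58 in either comparison. Ero1lb, the low-level beta form of the oxidase that recharges the isomerases, was at 8.26 ± 2.16 CPM alone, 9.48 ± 1.03 with TRMs and 6.32 ± 1.5 with monocytes and did not pass.

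Among the sensors and their transcription factor, none of Xbp1, Atf6 and Ern1 passed in limma in either comparison. Over all genes 18.4% passed with TRMs and 27.3% with monocytes. With TRMs 1 of the 3 had an unadjusted p under 0.05, and edgeR and DESeq2 called 0. With monocytes the counts for unadjusted p, edgeR and DESeq2 were all 0. Xbp1 was at 262, 241 and 232 CPM alone, against 206, 199.7 and 187 with TRMs and 219.6, 204 and 258 with monocytes. Its TRM libraries lay below the alone libraries, with a log2 difference of -0.31 (limma adjusted p = 0.114; 0.0492 with library totals), while the monocyte libraries overlapped them (log2 -0.11). Atf6 stood at 92.9, 158 and 105 CPM alone, against 88.2, 134 and 112 with TRMs and 132, 128 and 91.6 with monocytes. Ern1 stood at 45.8, 92.5 and 68.3, 45.1, 78.7 and 69.6 and 61.1, 61.3 and 57.6 CPM. The groups of both genes overlapped, and alone 2 was the highest library for each. The 95% intervals of the log2 difference with TRMs ran from -0.54 to 0.39 for Atf6 and from -0.60 to 0.45 for Ern1.

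The PERK branch and other signalling genes, a list of 20 of which 19 were tested, had more called genes on the lower side. With TRMs 1 rose and 3 fell, and with monocytes 2 rose and 6 fell; the shares that fell were 15.8% and 31.6%, against 8.15% and 12.7% of all genes. Eif2ak3, which encodes PERK, was at 97.6, 126 and 175 CPM alone, against 47.4, 54.7 and 48.5 with TRMs and 36.1, 54.3 and 73.7 with monocytes. Every co-culture library lay below every alone library, and the fall was 2.58-fold with TRMs (log2 -1.37, limma adjusted p = 0.00195) and 2.46-fold with monocytes (log2 -1.30, limma adjusted p = 0.00178). Chac1, a glutathione-degrading enzyme induced through ATF4 and CHOP, fell from 22, 57.4 and 23.8 CPM to 10.4, 14.1 and 5.11 with TRMs and 6.78, 11.8 and 9.99 with monocytes (limma adjusted p = 0.00829 and 0.0065). Creb3l1, an ER-anchored transcription factor related to ATF6, fell from 11.8 ± 2.81 CPM to 1.95 ± 0.286 and 1.99 ± 1.24 (SD, n = 3; limma adjusted p = 0.00434 and 0.00166). Ppp1r15a, which encodes the phosphatase subunit GADD34 that reverses PERK's block on translation, fell with monocytes (log2 -0.60, limma adjusted p = 0.00582). The falls of Eif2ak3 and Creb3l1 in both comparisons, of Chac1 with TRMs and of Ppp1r15a with monocytes kept their calls in all 17 settings. The genes that rose in this list were Traf2 with TRMs (log2 0.46, limma adjusted p = 0.0318), and Mbtps1 and Creb3l2 with monocytes. Traf2 lost its call with library totals and without any 1 of the alone libraries or TRM 2 or 3, and a count of 2 was reached without TRM 1. The 2 monocyte calls went to 0 without alone 1, and to 0 without monocyte 1 or 2. They went to 1 without alone 2, TRM 3 or monocyte 3.

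The transcription factors downstream of PERK did not pass. Atf4 was at 400.1, 586 and 384 CPM alone, against 445, 444 and 398 with TRMs and 334, 379 and 367 with monocytes (log2 -0.064 and -0.32, limma adjusted p = 0.824 and 0.158). Ddit3, which encodes CHOP, was at 20.9, 75.9 and 39.9, 19.3, 39.7 and 27 and 16.2, 34.9 and 25.7 CPM (log2 -0.54 and -0.71, limma adjusted p = 0.405 and 0.221). Their groups overlapped, and in both genes alone 2 was the highest of the 9 libraries. Trib3, a further ATF4 target named here because of its spread, was at 44.8, 231 and 25.7 CPM in the alone libraries, again highest in alone 2. Trib3 did not pass in either comparison with the alone group. With alone 2 left out, the adjusted p of Eif2ak3 was 0.00584 with TRMs and 0.00566 with monocytes, and that of Herpud1 was 0.00463 and 0.00106 (limma).

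ER-associated degradation draws misfolded proteins out of the ER to the proteasome. Of its 10 members in the list, Herpud1 and Sel1l fell with TRMs, and with monocytes Edem1 rose and Herpud1 fell. With TRMs 0% were higher and 20% lower, against 10.2% and 8.15% of all genes. With monocytes 10% were higher and 10% lower, under the 14.7% and 12.7% of all genes. Herpud1, whose product is a membrane protein that helps to assemble the HRD1 ubiquitin ligase complex, lies on chromosome 8 (94386438 to 94395377, plus strand, overlapped on the minus strand by Gm15890). It was at 239, 367 and 259.5 CPM alone, against 133, 148 and 110.4 with TRMs and 101, 143 and 99.8 with monocytes. The highest co-culture library lay well under the lowest alone library. The mean fell from 288 ± 69.1 to 130.5 ± 19 with TRMs and 115 ± 24.8 with monocytes (SD, n = 3), 2.19-fold (log2 -1.13, SE 0.19, limma adjusted p = 0.00131) and 2.51-fold (log2 -1.33, SE 0.19, limma adjusted p = 0.00029). No other of the 36 genes had as large a difference in either comparison.

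Sel1l encodes the adaptor of HRD1, and Syvn1 encodes HRD1 itself. Sel1l (chromosome 12, 91806043 to 91849157, minus strand) was at 149, 214 and 193 CPM alone, against 97.3, 129 and 145 with TRMs and 129, 145 and 130.1 with monocytes. All 6 co-culture libraries lay below the alone libraries. It was 1.5-fold lower with TRMs (log2 -0.59, limma adjusted p = 0.0304), and with monocytes the log2 difference was -0.44 (limma adjusted p = 0.072). The call with TRMs was lost without alone 2 (0.104) or 3 (0.107) or TRM 1 (0.114) or 2 (0.072). Syvn1 had values of 82.3, 126 and 117 CPM alone, against 107, 146 and 140.1 with TRMs and 174, 151 and 98 with monocytes. Its groups overlapped and it did not pass (log2 0.29 and 0.36).

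The EDEM proteins trim mannose from glycoproteins bound for degradation. Edem1 was at 104, 130.1 and 115 CPM alone, against 133, 163 and 171 with TRMs and 153, 172 and 162 with monocytes. The co-culture libraries lay above the alone libraries. The rise with monocytes passed (log2 0.49, limma adjusted p = 0.0204), and the difference with TRMs did not (log2 0.42, limma adjusted p = 0.055; 0.0289 in DESeq2). The rise was lost without alone 1 (0.0981) or 3 (0.066) or monocyte 2 (0.0695). Edem2 had log2 differences of 0.17 with TRMs and 0.10 with monocytes, and Edem3 of -0.45 and -0.25, none past the test. Derl1, Derl2 and Derl3, whose products take part in moving proteins out of the membrane, and Os9, a lectin that delivers glycoproteins to HRD1, did not pass either. The log2 difference of Derl1 with TRMs was 0.032 (95% interval -0.28 to 0.35), that of Derl2 0.077 and that of Os9 0.22. For the low Derl3 the interval ran from -2.11 to 1.62.

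The translocon brings new chains into the ER, and the 4 TRAP subunits (Ssr1 to Ssr4) assist it. All 6 genes of this group had a log2 difference above 0 in both comparisons, against 49.9% and 48.9% of all genes. With library totals the count was 5 with TRMs and 6 with monocytes. The count with TRMs was 4 without alone 1, and 5 without alone 3 or TRM 1. Ssr1 (chromosome 13, 37966605 to 37994217, minus strand) was at 136, 152 and 144 CPM alone, against 158, 185 and 206 with TRMs and 216, 236 and 227 with monocytes. The 3 groups did not overlap, with the TRM libraries between the others. Ssr1 was 1.57-fold higher with monocytes (log2 0.65, SE 0.13, limma adjusted p = 0.00275), and with TRMs the log2 difference was 0.34 (limma adjusted p = 0.096). The partner subunits, made in the same complex, did not pass. With monocytes the log2 differences were 0.39 for Ssr2 (limma adjusted p = 0.0747), 0.22 for Ssr3 and 0.38 for Ssr4. The channel subunit gene Sec61a1 went from 418 ± 9.5 to 518 ± 14.1 CPM with monocytes (SD, n = 3; log2 0.31, limma adjusted p = 0.0871), without overlap but without passing. Sec61b, the small beta subunit of the channel, spread widely with monocytes, at 13.6, 22.3 and 34.2 CPM against 15.2, 15.3 and 16.4 alone. Its 95% interval for the log2 difference ran from -0.13 to 1.09.

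The RNA of genes with and without a match to the first pattern of the ER stress element was set side by side. Of the 10 genes with the first pattern, none passed with TRMs (limma), and with monocytes 1 rose (Hsp90b1) and 1 fell (Hspa5). Of the 20 genes with a window but no such match, 1 rose and 2 fell with TRMs, and 4 rose and 2 fell with monocytes. These 20 include Herpud1 and Dnajb11, which hold the second pattern. Over all genes 18.4% were called with TRMs and 27.3% with monocytes. The 2 genes with the second pattern went apart, with Herpud1 lower in both co-cultures and Dnajb11 higher with monocytes. The median log2 difference of the 10 genes was 0.22 with TRMs and 0.3 with monocytes, against 0.089 and 0.23 for the 20. These groups are small and the comparison of them is a description.

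The rest of the pathway was followed in 6 further lists. The other ER folding enzymes had 34 tested genes, of which 5 rose and 1 fell (Dnajc10) with TRMs (14.7% and 2.94%, against 10.2% and 8.15% of all genes), and 13 rose and none fell with monocytes (1 fell without alone 2; 38.2%, against 14.7% of all genes). Prdx4, a peroxiredoxin that makes disulfides in the ER, rose from 26.7 ± 1.8 CPM to 52.5 ± 5.3 with TRMs and 68.2 ± 1.38 with monocytes (SD, n = 3; limma adjusted p = 0.000512 and 3.62e-05). Txndc5, an isomerase of the thioredoxin family, rose by 0.72 and 1.10 on the log2 scale with TRMs and with monocytes, and Cnpy4 by 0.78 and 1.27. Ero1l, the alpha form of the oxidase, was at 49.9, 84.8 and 54.3 CPM alone, against 226, 399 and 431 with TRMs and 82.3, 106 and 97.2 with monocytes. Its TRM libraries lay above all others, 5.53-fold over the alone mean (log2 2.47, limma adjusted p = 2.87e-05), while the difference with monocytes did not pass (log2 0.63, limma adjusted p = 0.0708). Ero1l is the other form of Ero1lb, whose differences did not pass. Without alone 3 the monocyte count of 13 was 8, and the fall of Dnajc10 was lost without alone 1 or 3 or TRM 2.

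ER export carries folded proteins to the Golgi, and the KDEL receptors bring chaperones such as BiP back. Of 23 genes tested, 7 rose with TRMs and 10 with monocytes, and none fell (30.4% and 43.5% higher, against 10.2% and 14.7% of all genes). With library totals 1 and 2 genes of this list fell, with TRMs and with monocytes. Kdelr3 rose from 10.4 ± 0.939 CPM to 26.9 ± 3.17 with TRMs and 23.7 ± 2.38 with monocytes (SD, n = 3; limma adjusted p = 0.000311 and 0.000547), and Kdelr2 was 1.44-fold higher with TRMs and 1.85-fold with monocytes (limma adjusted p = 0.0136 and 0.00037). The cargo receptor genes Surf4 and Tmed9 rose with TRMs by 0.62 and 0.65 on the log2 scale, and with monocytes by 0.66 and 0.65. With TRMs the count was 4 with library totals and without alone 1 or TRM 3, and 3 without alone 3 or TRM 2. A fall was called for 1 gene with TRMs without TRM 2, and with monocytes for 2 without TRM 1 and for 1 without monocyte 1.

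Of 17 genes for the oligosaccharyltransferase, which attaches glycans, and for glycan trimming, 2 rose with TRMs and 7 with monocytes, and none fell. That is 11.8% higher with TRMs, near the 10.2% of all genes, and 41.2% with monocytes, against 14.7%. Mlec, a lectin of the ER that binds early glycans, went from 333, 381 and 451 CPM alone to 866, 887 and 709.8 with monocytes (log2 1.08, limma adjusted p = 0.000353), with 417, 566 and 440.3 with TRMs. Its monocyte libraries lay above all others. Ddost, a subunit of the transferase, and Prkcsh, a glucosidase subunit, rose in both (log2 0.55 and 0.76, and 0.49 and 0.66), and Dpagt1, the enzyme that starts the glycan, rose with monocytes (log2 1.07; 0.64 with TRMs, limma adjusted p = 0.0731). The count with TRMs was 1 with library totals and without alone 1 or 3 or TRM 1 or 2. Of 26 other genes of import, signal recognition and signal peptide cleavage, 3 rose with TRMs and 7 with monocytes and none fell (1 in each without monocyte 3). The shares higher were 11.5%, near the 10.2% of all genes, and 26.9%, against 14.7%. They were led by Srprb, a subunit of the signal recognition particle receptor (log2 0.79 and 0.71, limma adjusted p = 0.0021 and 0.0028), Spcs3 (signal peptidase) and, with monocytes, Srp72. Wrb was also called in both (limma adjusted p = 0.0489 and 0.0178). Its call with TRMs was lost in 7 of 17 settings: library totals, and without any 1 of the alone or TRM libraries. The count of this list that rose was 1 with TRMs without TRM 2 or 3. With monocytes it was 3 without alone 1 or monocyte 2 and 4 without alone 3.

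The other degradation genes, 30 tested, had 1 called in each direction with TRMs (Ube2j2 and Rnf103), and 5 higher and 2 lower with monocytes. The shares were 3.33% each way with TRMs, under the 10.2% and 8.15% of all genes, and 16.7% and 6.67% with monocytes, against 14.7% and 12.7%. Rnf103, an ER ubiquitin ligase, fell by 0.57 on the log2 scale with TRMs and by 0.74 with monocytes (limma adjusted p = 0.00768 and 0.00105), and Ube2j2 and Ubac2 rose with monocytes (log2 0.60 and 0.73). The rise of Ube2j2 with TRMs was lost in 8 of 17 settings, among them without any 1 of the alone libraries or of the TRM libraries or monocyte 2, and 2 genes rose without monocyte 1. The count that fell with TRMs was 2 without monocyte 1 or 3. The 5 monocyte calls were 3 without alone 1 or 3 or monocyte 3. Among 29 chaperones of the cytosol and mitochondria, listed for contrast, 3 rose and 1 fell with TRMs and 6 rose and 1 fell with monocytes (10.3% and 20.7% higher, against 10.2% and 14.7% of all genes). Stip1, which links HSP70 to HSP90, rose in both (log2 0.62 and 0.80), Hspa1a with TRMs (log2 1.55) and Cct6a with monocytes (log2 0.59), while the low Hspb1 fell in both (limma adjusted p = 0.0239 and 0.0312). With TRMs the count that rose was 5 without monocyte 1; with monocytes it was 2 with library totals and without alone 1 or 3 or monocyte 2, and 3 without TRM 2. Hspb1 lost its calls without alone 1 or 3, TRM 2 or 3, or monocyte 1 or 2, each in the comparison that uses them, and 2 genes of the list fell with monocytes without monocyte 3.

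**Figure D5:**
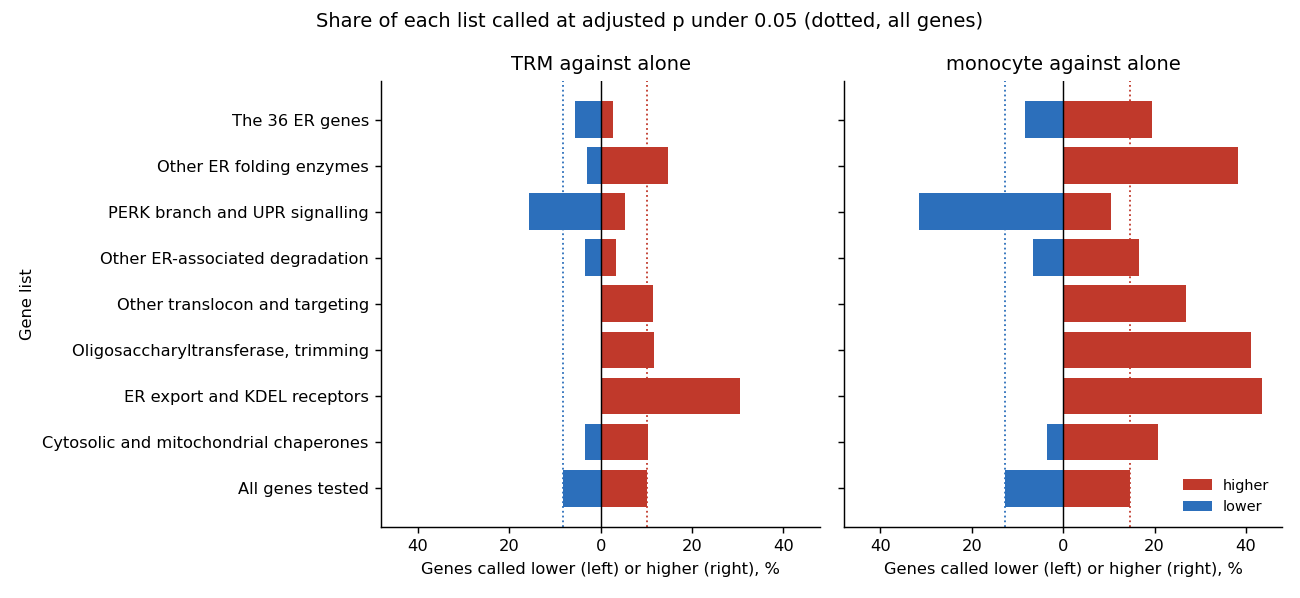
Percent of the tested genes of each list (rows) called higher (red, to the right) or lower (blue, to the left) at a limma adjusted p under 0.05, with TRMs and with monocytes against alone; dotted lines mark the shares over all 12326 genes. The 36 ER genes lie near or under the dotted lines with TRMs, and ER export reaches 30.4% and 43.5% higher.

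Between the 2 co-cultures none of the 36 genes passed in limma, edgeR or DESeq2, and 1 had an unadjusted p under 0.05 in limma and 1 in edgeR. The background was low too, at 0.398% of all genes (40 higher and 9 lower with TRMs; 35 and 16 with library totals, 197 and 139 in DESeq2). The gene with the smallest p was Ssr1, with TRM libraries at 158, 185 and 206 CPM and monocyte libraries at 216, 236 and 227 (log2 -0.31, 95% interval -0.60 to -0.032, limma adjusted p = 0.36). The intervals allow differences of some size either way: that of Herpud1 ran from -0.22 to 0.61, that of P4hb from -0.33 to 0.26 and that of Hspa5 from -0.36 to 0.41. The log2 difference was above 0 in 8 of the 36, against 50.0% of all genes, with a median of -0.15; without TRM 1 these were 13 and -0.092. The TRM libraries lay wholly above the monocyte libraries in 1 gene and wholly below in 5, against 7.55% and 8.62% of all genes. A gene called with monocytes and not with TRMs is therefore not shown to differ between them. Among the further lists, Ero1l was the 1 gene that passed (log2 1.84, limma adjusted p = 0.00816), and it was lost without TRM 2 (0.0797) or 3 (0.0507).

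Of the 36 genes, 35 were in the authors' deposited table for each comparison with the alone group. At the same threshold the authors' deposited table called 3 higher and 3 lower with TRMs: the 3 genes above and, in addition, Hspa5, Hsp90b1 and Edem1. With monocytes the authors' deposited table called 6 higher and 4 lower, which shared 9 genes with those called here. It added Sel1l and did not call Manf.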

How the data were processed

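RNA of GFP-sorted tumour cells was measured in 9 libraries made with SMART-Seq v4 from 1 ng of RNA, per the labels' protocols. Alignment used STAR 2.5 to mm10, with edgeR also named, per the submitters' processing notes; the counting tool is not named in the sources used here. The deposited values are a normalised signal in CPM. Each equals whole reads plus 0.5, divided by a library size scaled with TMM (edgeR's trimmed mean of M values; ratio 1.00095 to 1.00096): 111051 of 111051 values (100%) were whole within 1e-06 read. The authors' deposited comparison tables hold log2 fold changes, a likelihood ratio score and p-values, per the file headers, used here to compare calls.

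With R 4.3.3, genes were filtered on the recovered reads (filterByExpr, minimum count 10, minimum total 15; 13 genes removed, 12326 left). Log2 values were tested with limma 3.58.1 (variance prior following mean level, all 9 libraries, 6 residual degrees of freedom, two-sided). The call threshold was a Benjamini-Hochberg adjusted p of 0.05 over all 12326 genes. The 0.5 read makes fold changes understate those of low genes. Alternatives were edgeR 4.0.16 (quasi-likelihood) and DESeq2 1.42.0 on the recovered reads, library totals, log2(value + 1), no filter, a filter of 1 CPM in 3 libraries, the compared groups alone, a replicate block, and each library left out. On the recovered reads edgeR called 1212 genes higher and 971 lower with TRMs, 1781 and 1474 with monocytes, and 34 and 10 between the co-cultures. The fit was also run on simulated counts, drawn independently for each library around 1 mean per gene, apart from genes set to change. Such counts lack the differences between whole libraries seen here, so that run does not bear on them.

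The 36 genes and the other lists were chosen with earlier results of these data known. Named were all 36, the called ones with every library's value, Ddit3, Atf4, and up to 3 called genes per further list and comparison by smallest p; others were named after their values were seen. Replicates differed (chi-square per gene 21.1 to 90.6), so no library was taken as a copy. Positions and lengths come from GENCODE M21 and promoters from RefSeq (GRCm38.p6, 30 of 36 matched, Ero1lb by its synonym Ero1b). Protein sequences were not analysed here.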

Additional observations from a re-analysis of the deposited data

How the results depend on the processing

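Of the ER genes called, none changed direction under the 17 alternatives, and P4hb and Herpud1 (both co-cultures) and Ssr1 (monocytes) kept their calls in all of them; 1 of 3 calls with TRMs and 7 of 10 with monocytes were lost in some. Directions of differences that did not pass could turn. With library totals 20 ER genes lay above 0 with TRMs in place of 26, and 5296 of all genes in place of 6146. The median log2 difference of the degradation members with TRMs went from 0.055 to -0.031 with library totals. That of Xbp1, Atf6 and Ern1 with TRMs went from -0.077 to 0.15 without alone replicate 2. The count of ER genes that rose with TRMs, 1, was 3 in DESeq2, 2 with the compared groups alone and 1 to 3 with a library left out; the count that fell, 2, was 4 with library totals and 1 to 3 with a library left out. With monocytes, leaving out a library gave 2 to 11 higher (7 in the full fit) and 1 to 4 lower (3). Over all genes, leaving out a library gave 671 to 1421 higher (1257) and 536 to 1172 lower (1005) with TRMs, and 942 to 1673 lower (1560) with monocytes. The lowest came without TRM replicate 2 (671), alone replicate 3 (536) and alone replicate 3 (942). Between the co-cultures the 40 genes higher were 197 in DESeq2 and 0 to 106 with a library left out, and the 9 lower were 139 in DESeq2, 16 with library totals, 19 with log2(value + 1), 17 with the compared groups alone and 0 to 38 with a library left out.

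The replicate block lost no call among the ER genes. It added the rises of Hsp90b1 (0.0454) and Edem1 (0.0355), so that 3 in place of 1 rose, and the fall of Hspa5 (0.0211) with TRMs, and with monocytes the rise of Canx (0.029) and the fall of Sel1l (0.0319). Between the co-cultures 61 genes were higher and 18 lower. Over all genes, the deviations of same-numbered libraries had correlations of -0.025 to 0.43, and those of differently numbered libraries -0.40 to 0.26. The labels do not say what a shared number stands for, so a pairing of the replicates is neither shown nor excluded.

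In the further lists, the count higher with TRMs among other degradation genes (1) was 3 in DESeq2, 0 with library totals and 2 with the compared groups alone, and the count lower (1) was 2 in edgeR, 3 in DESeq2 and with library totals, and 2 with the 1 CPM filter and the compared groups alone. With library totals the TRM counts of Traf2's list (1), glycan genes (2) and ER export (7) were 0, 1 and 4. Cytosolic chaperones that rose were 6 in DESeq2 with TRMs (3), and 2 with library totals and 3 with the compared groups alone with monocytes (6). Beside the libraries left out, falls were called in lists that had none for 1 import gene (compared groups alone) and 1 export gene (library totals) with TRMs, and for 2 export genes with monocytes (DESeq2 and library totals). Precision is limited by 3 libraries a group and, for Derl3, by 9 to 41 reads.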
